A study of Mus musculus with 18 samples.

Results

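The 10 genes described here store, move and sense cellular iron. They are Fth1 and Ftl1 (ferritin), Tfrc (transferrin receptor), Slc40a1 (ferroportin), Ireb2 and Aco1 (iron regulatory proteins), Fbxl5 (an iron sensor), Ncoa4 (the ferritin autophagy receptor), and Pcbp1 and Pcbp2 (iron chaperones). They were chosen by gene symbol among the 55471 Ensembl gene rows of the oocyte files, and each symbol matched 1 row. All 10 passed the filter on low counts.

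Messenger RNA was measured in mouse MII oocytes, the mature eggs that wait in the second meiotic metaphase for fertilisation, in 3 libraries labelled wild type (WT) and 3 labelled Isca2 -/- (KO). The Isca2 product helps assemble iron-sulfur clusters in mitochondria. The KO allele, the strain and age of the females, and the number of oocytes per library are not given in the labels. The protocol text describes hormone-primed Isca2+/- females mated to Isca2+/- males and the amplification of RNA from blastocysts, and it is repeated for the oocytes. Sperm and blastocyst samples of the series were not used here. Nothing says that replicates came from separate animals, so p-values reflect only how these samples vary, which can be technical variation.

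Cells take up transferrin-bound iron through the transferrin receptor, keep what they do not use inside ferritin shells, and release iron through ferroportin. When iron is scarce, the iron regulatory proteins encoded by Aco1 and Ireb2 bind hairpins called iron-responsive elements. On ferritin and ferroportin messenger RNA this blocks translation, and on transferrin receptor messenger RNA it slows decay. FBXL5 marks the iron regulatory proteins for destruction when iron is plentiful, NCOA4 carries ferritin to the lysosome, and PCBP1 and PCBP2 hand iron to ferritin and to iron enzymes.

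The libraries held between 17792157 and 30240350 expected counts. Isca2 (chromosome 12, 84773230 to 84775089, GRCm38.p6) had 2.35, 2.17 and 15.41 deposited TPM (a level scaled by transcript length and library) in WT replicates 1, 2 and 3. It had 5.66, 7.40 and 8.70 TPM in those labelled KO, so the targeted gene was not lower there. The direction KO over WT below is therefore drawn between libraries as labelled. WT replicate 3 stood apart from the other 5 libraries. Its Pearson correlations with them across genes, on log2 CPM (counts scaled to library size), were 0.881 to 0.903, against 0.930 to 0.960 among the others. The summed CPM of 16 macrophage and leukocyte markers was 1197 in it and 13.5 to 21.5 in the others. Oocyte markers were high in every library, with a summed CPM of 16224 to 19331 for 15 genes, led by Dppa3 and Gdf9. The values of the 10 genes are therefore given with and without WT replicate 3. In bulk RNA, a change in the number of cells of a type and a change in RNA per cell cannot be told apart.

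Ferritin heavy chain RNA was higher in the libraries labelled KO when WT replicate 3 was left out. Fth1 encodes the subunit that oxidises iron on its way into the shell (ENSMUSG00000024661, chromosome 19, 9980600 to 9985111, GRCm38.p6). It had 20.9, 18.2 and 1674 CPM in WT replicates 1, 2 and 3. It had 44.3, 75.6 and 52.9 CPM in KO replicates 1, 2 and 3. All 3 libraries labelled KO lay above WT replicates 1 and 2, an order that 15.4% of all genes tested had. WT replicate 3 lay 22.1-fold above the highest of the other 5. Without WT replicate 3 Fth1 was 2.94-fold higher in the libraries labelled KO, at 57.6 ± 16.1 CPM (SD, n = 3) against 19.6 ± 1.95 CPM (n = 2), with a log2 fold change of 1.56 (SE 0.23, adjusted p = 0.0255, edgeR). With all 6 libraries the log2 fold change was -3.31 (SE 1.62, adjusted p = 0.766), so WT replicate 3 turned the direction.

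The ferritin light chain gene Ftl1 ordered the 6 libraries as Fth1 did, from WT replicate 2 at the bottom to WT replicate 3 at the top. The light chain helps the iron core form and does not oxidise iron (ENSMUSG00000050708, chromosome 7, 45457944 to 45459886, GRCm38.p6). It had 115, 86.8 and 819 CPM in WT replicates 1 to 3 and 146, 287 and 204 CPM in KO replicates 1 to 3. Every library labelled KO again lay above WT replicates 1 and 2, as for 15.4% of all genes tested, and below WT replicate 3. Without WT replicate 3 the log2 fold change was 1.07 (SE 0.25), at 212 ± 70.9 CPM (n = 3) against 101 ± 20.2 CPM (n = 2). This did not pass the test (adjusted p = 0.112, edgeR). With all 6 libraries it was -0.68 (SE 0.81, adjusted p = 0.875).

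The sequences just before the transcription starts of both ferritin genes are shown because both genes ordered the libraries alike. They are the 120 bases upstream, from RefSeq on GRCm38.p6, in the direction of transcription. Fth1 lies at chr19:9982526-9982645 on the plus strand, before the later of its 2 listed starts, and Ftl1 at chr7:45459887-45460006 on the minus strand. Capitals mark CCAAT or GGGCGG on either strand.
Fth1: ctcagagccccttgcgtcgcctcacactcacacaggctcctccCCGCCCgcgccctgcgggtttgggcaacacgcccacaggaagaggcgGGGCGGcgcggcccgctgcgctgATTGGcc
Ftl1: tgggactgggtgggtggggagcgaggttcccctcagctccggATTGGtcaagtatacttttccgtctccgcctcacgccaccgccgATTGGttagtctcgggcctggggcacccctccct
CCAAT was found on the opposite strand in both windows, 1 time in Fth1 and 2 times in Ftl1. Of 32851 promoter windows of this length, 21.3% held CCAAT. The motif GGGCGG was in the Fth1 window, not in that of Ftl1, on both strands, and in 26.5% of all windows. The antioxidant response core TGACNNNGC (5.71% of all windows) and TATAA (11.8%) were in neither. Promoter entries were found for 8 of the 10 genes.

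Heavy and light chain levels can be compared per length. The ratio of Fth1 to Ftl1 TPM was 0.191 and 0.226 in WT replicates 1 and 2, and 2.10 in WT replicate 3. It was 0.321, 0.280 and 0.275 in KO replicates 1 to 3. Light chain RNA was thus the more abundant in 5 libraries, and heavy chain RNA in WT replicate 3. The ratios of the libraries labelled KO lay above those of WT replicates 1 and 2 and did not overlap them. How often the ratios of other gene pairs lie in that order was not tested. Ferritin genes have many close copies that can share reads. The copies named after the light chain (3 rows) took 1.05% to 2.03% of light chain counts, nearly all at Ftl1-ps1, and the 11 named after the heavy chain took at most 0.624% of heavy chain counts. With the copies added to Ftl1, its log2 fold change without WT replicate 3 was 1.07 (SE 0.25, adjusted p = 0.111, edgeR).

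**Figure D1:**
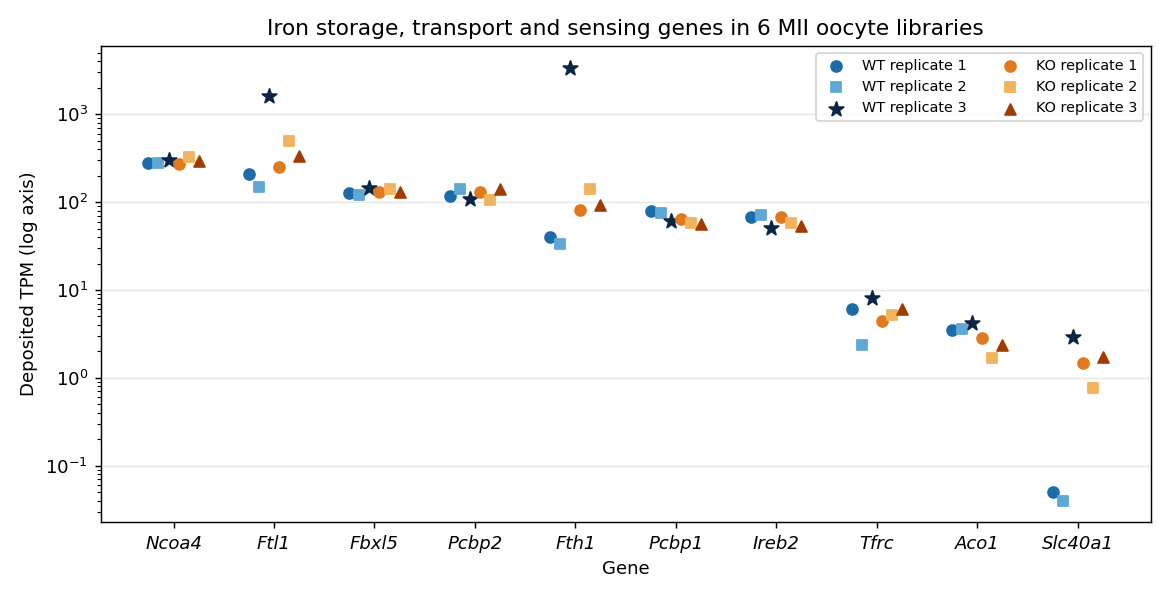
Deposited TPM of the 10 genes (log axis) in each of the 6 MII oocyte libraries, ordered by the mean of the 5 libraries other than WT replicate 3. Each symbol is 1 library; WT replicate 3 (star) is far above the rest for Fth1 and Ftl1, and WT replicates 1 and 2 are far below the rest for Slc40a1.

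Ferroportin RNA was almost undetected in WT replicates 1 and 2 and present in the other 4 libraries. Slc40a1 encodes the only known iron exporter of mammalian cells (ENSMUSG00000025993, chromosome 1, 45908070 to 45926532, GRCm38.p6). It had 3, 2 and 193 expected counts in WT replicates 1 to 3 and 84, 34 and 129 in KO replicates 1 to 3. In CPM this was 0.13, 0.10 and 6.66 in WT and 3.68, 1.90 and 4.55 in those labelled KO. WT replicate 3 was therefore the highest library, 1.46-fold above KO replicate 3. With that library left out, the summed counts were 247 in the libraries labelled KO and 5 in WT, a ratio of 31.0 per scaled library, with an exact 95% interval of 13.1 to 96.3 that covers counting error only. Slc40a1 then passed the count filter through the libraries labelled KO alone, so it could enter the test only by being higher there. The ratio with its interval, which leaves out the spread between libraries, is therefore given as a description and not as support for a rise. The same holds for the fitted log2 fold change of 4.81 (edgeR, SE 0.73, adjusted p = 0.0256). With all 6 libraries the log2 fold change was 0.55 (SE 1.36, adjusted p = 0.944).

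Without WT replicate 3, 2 members passed the threshold with higher values in the libraries labelled KO, Fth1 and Slc40a1, and 0 with lower. Slc40a1 entered that test only through the group where it was high, so Fth1 is the 1 member whose call can be read against the background. Of all 14122 genes tested there, 0.574% were called higher and 0.0779% lower. With all 6 libraries 0 members were called in either direction by edgeR, DESeq2 or limma-voom, and 0 had an unadjusted p under 0.05. Of 13680 genes tested, edgeR and limma-voom called 0% higher and 0.0146% lower, and DESeq2 0.592% and 0.146%. DESeq2 returned no adjusted p for Fth1 there. Without WT replicate 3, DESeq2 also called Fth1 (adjusted p = 8.2e-09), with 3.02% of genes called higher and 0.538% lower. limma-voom did not (adjusted p = 0.0791), with 0.0354% of genes called higher and 0.0425% lower. Leaving out 1 more library ended the Fth1 call when that library was WT replicate 1 (adjusted p = 0.0539, edgeR), WT replicate 2 (adjusted p = 0.174) or KO replicate 3 (adjusted p = 0.0861). The log2 fold change of Fth1 was between 1.31 and 1.71 in these 5 fits. Ftl1 was called in the 1 of them that left out KO replicate 1 (log2 fold change 1.28, adjusted p = 0.0330, edgeR).

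**Figure D2:**
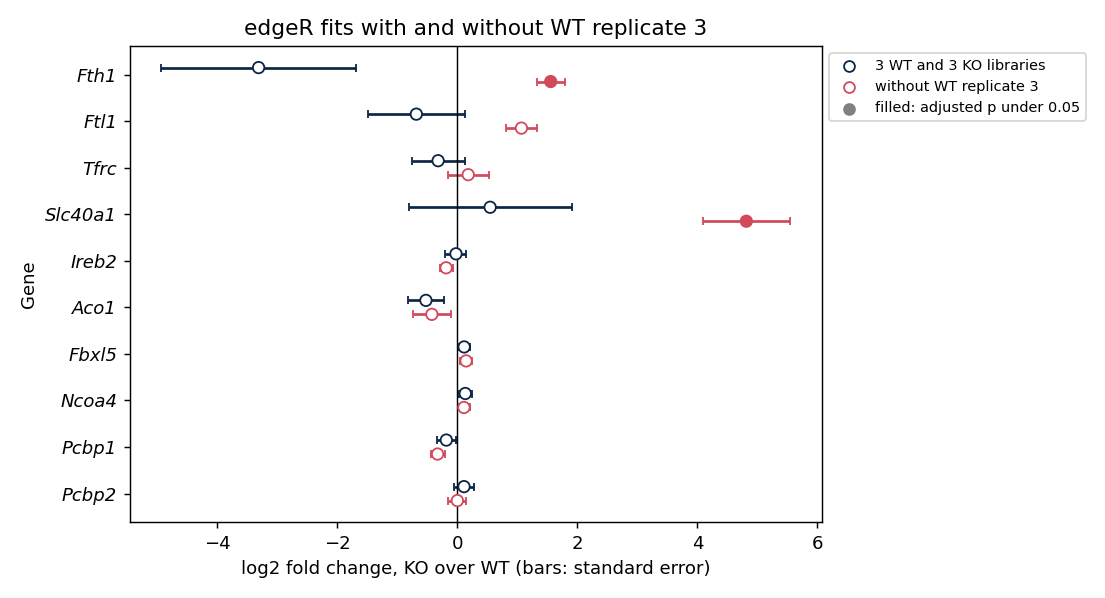
log2 fold change of KO over WT for the 10 genes from edgeR, with bars of 1 standard error, for all 6 libraries (dark) and without WT replicate 3 (red); filled points have an adjusted p under 0.05. Fth1 moves from -3.31 to 1.56 and Slc40a1 from 0.55 to 4.81, and these 2 points alone are filled, Slc40a1 being a gene that entered the second test through the libraries labelled KO alone.

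Markers of other cells moved with some of these values. In WT replicate 3, where both ferritins and Slc40a1 were highest, 14 of 16 macrophage and leukocyte markers had at least 1 CPM, led by Adgre1 (F4/80) at 289 CPM and Laptm5 at 195 CPM. In each of the other 5 libraries 3 of 16 did. The libraries labelled KO summed to 15.1 to 21.3 CPM for this list and WT replicates 1 and 2 to 13.5 and 21.5 CPM. Adgre1 was at most 0.46 CPM in those 5 libraries. Laptm5 was 6.18 to 13.2 CPM there. The part of these cells in the values above was not tested.

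Granulosa and cumulus cells surround the oocyte in the follicle, and their marker sum lay above the WT range in 2 libraries labelled KO. Their summed CPM over 14 genes was 85.1, 77.4 and 74.7 in WT replicates 1 to 3 and 77.2, 106 and 164 in KO replicates 1 to 3. Cyp19a1 made up most of the sum in 5 libraries and was 51.2 to 64.7 CPM in all 6. Inha was highest in KO replicate 3, at 36.5 CPM, and was 0.22 CPM in KO replicate 1. At least 1 CPM was reached by 6, 2 and 6 of the 14 markers in WT replicates 1 to 3 and by 6, 7 and 9 in KO replicates 1 to 3. Of 9 tested markers 7 had a positive log2 fold change without WT replicate 3, and 1, Inhbb, was called higher (adjusted p = 0.0260, edgeR). Of all genes tested there, 0.574% were called higher. No count was found for 5 of the 14 markers in WT replicate 1 and for 9 in WT replicate 2. Markers can thus have passed the count filter through the libraries labelled KO, so these signs and this call cannot be read against that share. Amh and Foxl2 were at most 0.25 CPM in any library. The part of granulosa and cumulus cells in the values of Fth1, Ftl1 and Slc40a1 was not tested. Erythroid markers summed to 5.64 to 11.1 CPM, nearly all from Epb42, with Hbb-bs at most 0.32 CPM. Epithelial markers summed to 60.6 to 89.8 CPM, nearly all from Cdh1, which oocytes also express, with Krt18 at most 7.84 CPM.

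**Figure D3:**
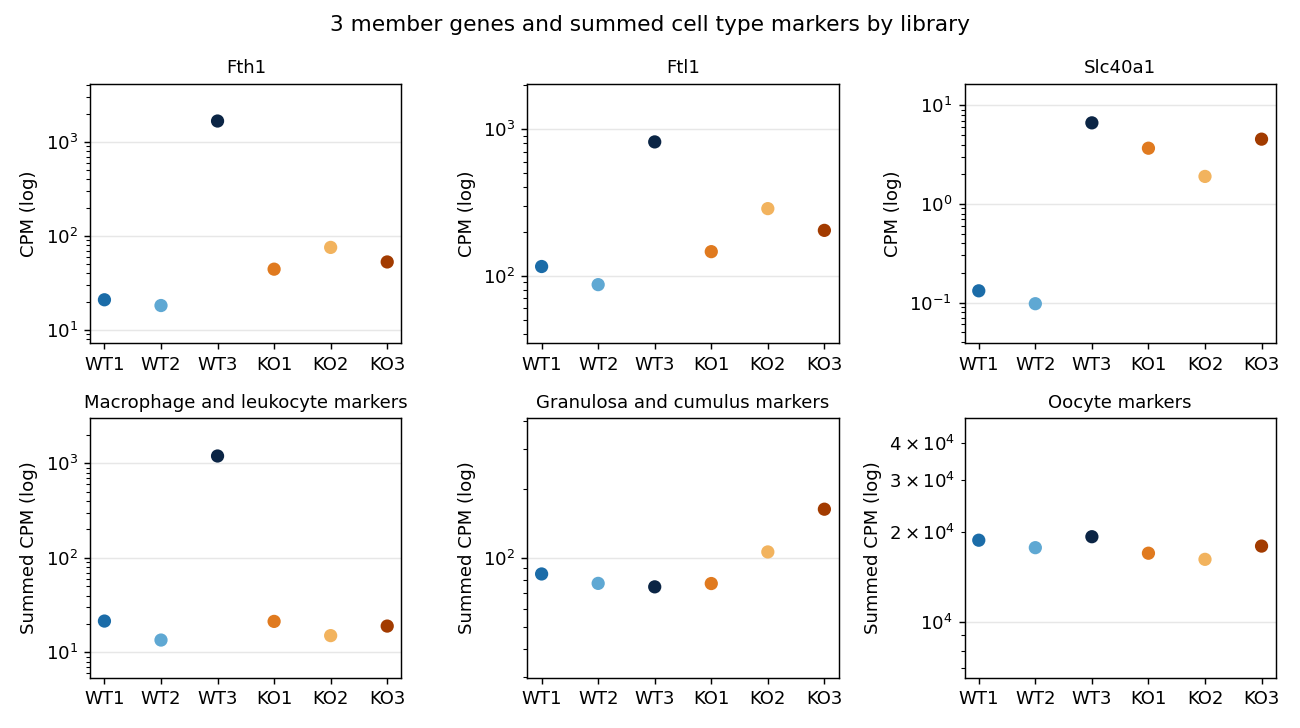
CPM of Fth1, Ftl1 and Slc40a1 (top) and summed CPM of 16 macrophage and leukocyte, 14 granulosa and cumulus, and 15 oocyte markers (bottom) in each library, on log axes. WT3 stands out for both ferritins and for the macrophage list (1197 CPM), while the granulosa list is highest in KO3 (164 CPM).

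The transferrin receptor gene Tfrc did not separate the groups. The receptor brings transferrin-bound iron into the cell (ENSMUSG00000022797, chromosome 16, 32608896 to 32632794, GRCm38.p6). Tfrc had 14.76, 6.81 and 24.25 CPM in WT replicates 1 to 3 and 10.73, 10.97 and 15.02 CPM in KO replicates 1 to 3. The KO values lay inside the WT range. The log2 fold change was -0.32 (SE 0.44, adjusted p = 0.894) with all libraries and 0.18 (SE 0.34, adjusted p = 0.909) without WT replicate 3. WT replicates 1 and 2 differed from each other more than the KO replicates did. The mean length of its transcripts, which RSEM (the authors' quantifier) weights by estimated abundance, was 3389, 3749 and 4410 bases in WT. It was 3297, 2879 and 3088 bases in the libraries labelled KO, each below every WT library. That pattern was found in 5.68% of 10739 tested genes whose length varied, and for Tfrc it rests on 140 to 703 expected counts a library. Per length, Tfrc had 6.12, 2.38 and 8.01 TPM in WT and 4.43, 5.25 and 6.13 TPM in those labelled KO. The ratio of Tfrc to Fth1 TPM was 0.152 and 0.0717 in WT replicates 1 and 2, 0.00235 in WT replicate 3, and 0.0544, 0.0374 and 0.0668 in those labelled KO.

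The iron regulatory protein genes differed in level by an order of magnitude, with Ireb2 the more abundant. Ireb2 encodes the protein that is degraded when iron is plentiful (ENSMUSG00000032293, chromosome 9, 54862658 to 54912534, GRCm38.p6). It had 67.8, 70.7 and 51.3 TPM in WT and 66.9, 57.2 and 53.8 TPM in those labelled KO, with overlapping groups. Its log2 fold change was -0.02 (SE 0.17, adjusted p = 0.989), and -0.19 (SE 0.11, adjusted p = 0.579) without WT replicate 3. Aco1 encodes a cytosolic aconitase that binds RNA once it has lost its iron-sulfur cluster (ENSMUSG00000028405, chromosome 4, 40143265 to 40199009, GRCm38.p6). It had 7.14, 6.71 and 8.38 CPM in WT and 4.95, 4.09 and 6.42 CPM in those labelled KO. Aco1 was the 1 member of 10 whose groups did not overlap over all 6 libraries, with the highest KO value under the lowest WT value. Of all genes tested 5.96% had that order and 6.48% the opposite. The Aco1 difference did not pass the test (edgeR, log2 fold change -0.52, SE 0.29, adjusted p = 0.781). Leaving out WT replicate 3 gave -0.42 (SE 0.31, adjusted p = 0.696). The ratio of Ireb2 to Aco1 TPM was 19.1, 19.8 and 12.1 in WT and 23.6, 33.6 and 22.6 in those labelled KO, without overlap. The share of other gene pairs with such an order was not tested.

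Fbxl5, Ncoa4, Pcbp1 and Pcbp2 varied little between libraries. Fbxl5, the iron-binding adaptor that targets the iron regulatory proteins (ENSMUSG00000039753, chromosome 5, 43744618 to 43782149, GRCm38.p6), had 255, 257 and 274 CPM in WT and 269, 287 and 294 CPM in those labelled KO. Its log2 fold change was 0.11 (SE 0.10, adjusted p = 0.829), and 0.15 (SE 0.10, adjusted p = 0.644) without WT replicate 3. Fbxl5 levels overlapped between the groups only through WT replicate 3. Without that library, 15.4% of all genes tested lay higher in every library labelled KO. The ferritin receptor gene Ncoa4 (ENSMUSG00000056234, chromosome 14, 32159879 to 32179855, GRCm38.p6) had 648, 687 and 637 CPM in WT and 648, 758 and 755 CPM in those labelled KO. Its log2 fold change was 0.13 (SE 0.11, adjusted p = 0.820), and 0.11 (SE 0.10, adjusted p = 0.776) with WT replicate 3 left out. For Ncoa4, KO replicates 2 and 3 lay above the WT range and KO replicate 1 inside it.

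The iron chaperones PCBP1 and PCBP2 are also binders of cytosine-rich RNA. Pcbp1 (ENSMUSG00000051695, chromosome 6, 86524480 to 86526189, GRCm38.p6) had 95.4, 98.5 and 69.2 CPM in WT and 81.6, 73.5 and 76.5 CPM in those labelled KO. Its log2 fold change was -0.18 (SE 0.16, adjusted p = 0.829), and -0.33 (SE 0.12, adjusted p = 0.288) without WT replicate 3, which was its lowest library. Pcbp2 (ENSMUSG00000056851, chromosome 15, 102470450 to 102500068, GRCm38.p6) had 99.1, 124 and 87.0 CPM in WT and 116, 95.4 and 124 CPM in those labelled KO, with full overlap. Its log2 fold change was 0.11 (SE 0.17, adjusted p = 0.911), and 0.000358 (SE 0.15, adjusted p = 0.999) with WT replicate 3 left out. The ratio of Pcbp2 to Pcbp1 TPM was between 1.51 and 2.49 in every library.

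Leaving WT replicate 3 aside, 4 of the 10 genes lay higher in every library labelled KO (Fth1, Ftl1, Slc40a1 and Fbxl5) and 2 lower (Aco1 and Pcbp1). With 2 libraries against 3, 15.4% of all genes tested lay higher in that way and 13.1% lower. Slc40a1 passed the count filter there through the libraries labelled KO alone, so its order cannot be read against that share. The median log2 fold change of the 10 genes was -0.10 with all libraries, against -0.04 over all genes tested. Leaving out WT replicate 3 gave 0.13 against 0.01.

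By TPM over the 5 libraries other than WT replicate 3, Ncoa4 (291 ± 21.5, SD, n = 5) and Ftl1 (289 ± 136) led the group, and their ranges overlapped. Fbxl5 (130 ± 6.97), Pcbp2 (127 ± 15.5), Fth1 (77.4 ± 43.4), Pcbp1 (66.8 ± 10.1) and Ireb2 (63.3 ± 7.33) followed, each overlapping its neighbour. Tfrc (4.86 ± 1.56), Aco1 (2.81 ± 0.80) and Slc40a1 (0.81 ± 0.78) were far below, with a clear gap between Ireb2 and Tfrc. Fbxl5 and Ncoa4 had the smallest relative spread (5.34% and 7.39% of the mean), and Slc40a1 the largest (96.3%). With WT replicate 3 included, Fth1 (631 ± 1358, n = 6) and Ftl1 (511 ± 557) stood highest. WT replicate 3 was 85.6-fold above the mean of WT replicates 1 and 2 for Fth1, 58.2-fold for Slc40a1, 8.10-fold for Ftl1 and 2.25-fold for Tfrc, and lay between 0.678-fold and 1.21-fold for the other 6. Of all genes tested, 20.5% were more than 2-fold above in that library. Of the 13586 with a count in WT replicates 1 or 2, 0.986% were more than 50-fold above.

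The genes whose log2 CPM followed Fth1 most closely over the 6 libraries were B2m (Pearson r = 0.994), Actb (0.990) and Sdcbp (0.987), among 3857 genes whose log2 CPM averaged 5 or more. For Tfrc they were Slc25a5 (0.986), Adpgk (0.983) and Atp6v1f (0.977). All 6 points share their libraries with the gene compared, and the Fth1 values are dominated by WT replicate 3.

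Other genes of iron handling did not pass the test in either comparison. Of 46 genes listed by role, 26 were tested with all libraries and 28 without WT replicate 3, and 0 were called by edgeR, DESeq2 or limma-voom. The counts at an unadjusted p under 0.05 were 0 higher and 2 lower with all libraries, and 1 higher and 1 lower without WT replicate 3 (edgeR). The background at that unadjusted threshold was 2.89% higher and 3.3% lower with all libraries, and 7.68% and 3.89% without WT replicate 3. The list median was -0.15 with all libraries and 0.003 without WT replicate 3, against -0.04 and 0.01 over all genes. With all libraries 18 of the 26 log2 fold changes were negative and 8 positive. That median depended on the processing. It was -0.33 with no count filter and -0.02 with the replicate number as a block. Over all 6 libraries the groups did not overlap for 1 of the 26 tested genes in the higher direction (Steap1). They did not overlap for 4 in the lower (Steap4, Abcb8, Skp1a and Cdc14a), against 6.48% and 5.96% of all genes. Without WT replicate 3 this held for 4 higher and 6 lower of 28, against 15.4% and 13.1%. Steap1 is among the 4 higher. It passed the count filter through the libraries labelled KO, so its order cannot be read against these shares.

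Cdc14a, a phosphatase gene whose messenger RNA can carry an iron-responsive element behind the coding part, had lower values in all 3 libraries labelled KO but did not pass the test. It had 11.6, 11.5 and 11.2 CPM in WT and 5.26, 4.76 and 7.33 CPM in those labelled KO. The groups did not overlap, an order that 5.96% of all genes tested had, and WT replicate 3 was close to the other WT libraries. The log2 fold change was -0.98 (SE 0.27, unadjusted p = 0.00748, adjusted p = 0.747, edgeR), and -0.99 (SE 0.28, adjusted p = 0.180) without WT replicate 3. Of the other messenger RNAs with such an element, Cdc42bpa, a kinase gene, had the highest level (235 TPM on average) and a log2 fold change of 0.25 (SE 0.15), or 0.12 (SE 0.11) without WT replicate 3. Alas2 and Epas1 were too low to test.

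Among uptake genes, Steap4, a metalloreductase gene, had 22.6, 20.9 and 33.5 CPM in WT and 9.86, 19.3 and 15.2 CPM in those labelled KO. The groups did not overlap (edgeR, log2 fold change -0.80, SE 0.31, unadjusted p = 0.0345, adjusted p = 0.766), and without WT replicate 3 the value was -0.56 (SE 0.27, adjusted p = 0.483). Its relative Steap1 lay the other way at much lower levels, with 0.44, 0.10 and 0 CPM in WT and 1.75, 0.50 and 1.13 CPM in those labelled KO. The Steap1 log2 fold change was 2.65 (SE 1.20, adjusted p = 0.766), and 2.04 (SE 1.01, adjusted p = 0.495) without WT replicate 3. Steap2, the most abundant gene of this role at 34.2 TPM, had -0.01 (SE 0.13), and -0.08 (SE 0.13) without WT replicate 3. The endosomal iron transporter gene Slc11a2 had 0.30 (SE 0.35), and 0.57 (SE 0.34) without that library. The plasma carrier gene Trf had 8.24 CPM in WT replicate 3 and at most 0.35 CPM elsewhere. Tfr2, Cybrd1, Tmprss6 and the mitochondrial ferritin gene Ftmt had no count in any library.

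Hmox1, the inducible heme oxygenase gene, had 33.2 CPM in WT replicate 3, 1.85 CPM in KO replicate 2 and at most 0.07 CPM elsewhere. It was too low to test. Its constitutive relative Hmox2 had 7.71, 6.95 and 27.3 CPM in WT and 11.3, 9.24 and 13.2 CPM in those labelled KO. WT replicate 3 turned its direction, from a log2 fold change of 0.62 (SE 0.27, adjusted p = 0.410, edgeR) without that library to -0.32 (SE 0.54, adjusted p = 0.919) with it.

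None of the 4 ubiquitin ligase subunits that work with FBXL5 or NCOA4 passed the test. Cul1, the scaffold of the FBXL5 ligase, averaged 1781 TPM with a log2 fold change of 0.08 (SE 0.14), and -0.03 (SE 0.08) without WT replicate 3. The 4 genes of this role lay between -0.43 and 0.23 with all libraries and between -0.22 and 0.10 without WT replicate 3. Of mitochondrial iron genes, Cisd1, which encodes an iron-sulfur protein of the outer membrane, was the most abundant (45.3 TPM) at -0.79 (SE 0.35), and -0.45 (SE 0.28) without WT replicate 3. Hamp, the hepcidin gene, had the highest TPM of the export and systemic genes (18.2 TPM), with a log2 fold change of 0.28 (SE 0.44), or 0.07 (SE 0.46) without WT replicate 3. That level rests on only 42 to 84 expected counts a library over a short transcript of 410 bases. Pcbp3 was the most abundant chaperone partner (13.3 TPM), at -0.36 (SE 0.26), or -0.42 (SE 0.26) without that library.

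**Figure D4:**
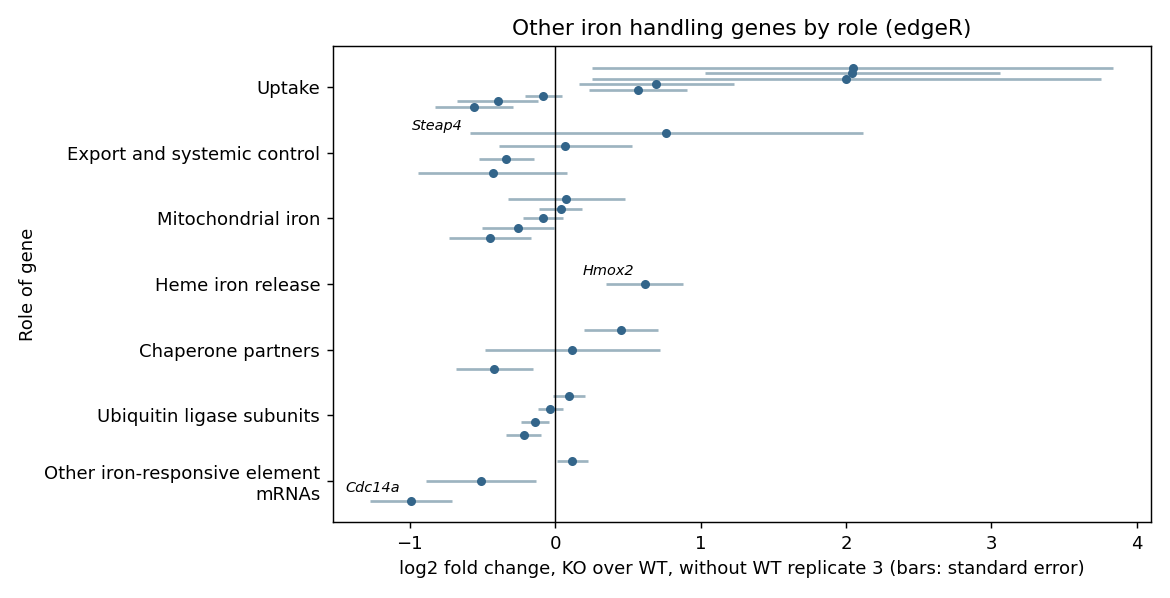
log2 fold change of KO over WT without WT replicate 3 for the 28 tested genes of other iron handling roles, with bars of 1 standard error (edgeR). The points lie between -0.99 (Cdc14a) and 2.05, and 0 of the 28 were called.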

How the data were processed

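Each oocyte library had 1 table, in which the authors deposited expected counts, TPM and an abundance-weighted transcript length per Ensembl gene (RSEM output, by its column names). The submitters' processing notes name Trim Galore 0.4.5, STAR 2.6.1c, RSEM 1.3.1, DESeq2 1.42.1 and mm10/GRCm38 without roles. Reads of overlapping or antisense genes cannot be separated, since annotation release and strand setting are not given in the sources used here. A symbol was found for 55144 of 55471 IDs. Coordinates and promoters came from RefSeq (GRCm38.p6).

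Expected counts were rounded and tested with edgeR 4.0.16 in R 4.3.3 (quasi-likelihood, filterByExpr, TMM, genotype only, Benjamini-Hochberg over all genes, threshold 0.05). A standard error is the log2 fold change divided by the root of F. CPM used the TMM sizes of all 6 libraries. Alternatives used DESeq2 1.42.0 and limma 3.58.1. The fit was checked on simulated counts. The labels do not pair the samples. Libraries with the same replicate number had correlations of deviations from their group means of 0.06, -0.11 and 0.01. The WT mean includes WT replicate 3, which stood apart, so these values cannot exclude a pairing.

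The genes, lists and comparisons without WT replicate 3 were chosen with earlier results of these data known. Besides all 10 genes, Isca2, list genes with an unadjusted p under 0.05 or the highest TPM of their role, the top 2 markers a cell type and the 3 genes most like Fth1 and Tfrc were named. Slc11a2, Slc39a14, Steap1, Abcb8, Skp1a, Alas2, Epas1, Trf, Hmox1, Amh, Foxl2, Inhbb and genes at 0 were named after their values were seen.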

Additional observations from a re-analysis of the deposited data

How the results depend on the processing

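With all 6 libraries no alternative called any of the 10 genes or of the other iron handling genes. The signs of Aco1, Fbxl5, Ncoa4, Pcbp1 and Slc40a1 were the same in every fit run, while 5 genes changed sign somewhere. With the replicate number as a block, which the design does not support as a pairing, Fth1 had a log2 fold change of 0.00705 and Ftl1 of 0.0575, and the block called 0 genes higher and 2 lower. Tfrc had 0.0528 with log2 of TPM plus 1 and 0.0904 with log2 of TPM plus 0.1, and Ireb2 had 0.00445 with limma-voom. Over the fits that left out 1 library or WT replicate 3 and 1 more choice, the log2 fold changes ran from -3.87 to 1.71 for Fth1, from -1.13 to 1.29 for Ftl1, from -0.66 to 0.84 for Tfrc, from -0.26 to 0.12 for Ireb2, from -0.16 to 0.27 for Pcbp2 and from 0.00413 to 5.10 for Slc40a1. Without WT replicate 3, Fth1 had 1.56 with DESeq2, RLE size factors or summed Ftl1 copies, 1.496 with limma-voom and 1.55 with library totals. Ftl1 had 1.07 with DESeq2, RLE size factors or its copies summed, 1.01 with limma-voom and 1.06 with library totals. Tfrc had 0.183 with DESeq2 or RLE size factors and 0.182 with summed Ftl1 copies, and Pcbp2 had -0.000434, -0.000504 and -0.00921 with DESeq2, RLE size factors and library totals. Isca2 ran from 0.15 to 2.67 there, and had 0.59 with all 6 libraries (SE 0.89, adjusted p = 0.907, edgeR). Without WT replicate 3, DESeq2 called Isca2 (2.49, adjusted p = 0.00822). Neither edgeR (2.48, adjusted p = 0.0969) nor limma-voom (2.43, adjusted p = 0.344) did so. Genes called higher numbered 0 to 131 and genes called lower 1 to 12 in the edgeR fits, and 0 to 3 of the 10 genes were called higher. DESeq2 called 81 higher and 20 lower with all libraries, and 426 and 76 without WT replicate 3, where limma-voom called 5 and 6, library totals 65 and 9, and RLE size factors or summed Ftl1 copies 81 and 11. The TPM fits called 7 higher and 5 lower with a pseudocount of 1, and 8 and 5 with 0.1. The cause of these differences was not tested. The fits without WT replicate 3 in other tools, with a further library left out or with copies summed were chosen after seeing the data. With CPM in place of TPM, 6 of the 10 genes changed rank by level. The 2 to 3 counts of Slc40a1 in WT replicates 1 and 2 limit its ratio.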
